A study of Rattus norvegicus with 16 samples.

Results

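Mitochondrial carriers are proteins of the inner mitochondrial membrane that move metabolites between the mitochondrial matrix and the cytosol, and most belong to the Slc25 gene family. The genes described here were chosen by symbol, as every symbol of the form Slc25a followed by a number plus the uncoupling proteins Ucp1, Ucp2 and Ucp3. The rule found 43 of the 22517 gene symbols in the files, 40 with an Slc25a symbol and 3 uncoupling proteins, and all 43 matched a current gene in the RefSeq table. RNA was sequenced from the liver and the epididymal fat of 8 male rats of the obese ZDF/GmiCrl-fa/fa Zucker strain. The groups were LA livers, PF livers, LA fat and PF fat, with 4 libraries each. LA rats received Purina 5008 chow with added R-α-lipoic acid (LA) for 2 weeks, a thiol compound that mitochondrial dehydrogenases use as a cofactor. Pair-fed (PF) rats received the same chow without it, and all rats were assigned at 9 weeks of age and sampled at 11 weeks. Every group carried the fa/fa genotype, which leaves the leptin receptor without function, so no lean rats are part of the comparisons. The dose of LA is not given in the sources used here, and which liver and fat libraries share a rat is not stated.

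The inner mitochondrial membrane lets few charged molecules through, and carriers supply the matrix with ADP, phosphate, fuels and cofactors and return products such as ATP and citrate. In liver, carriers link the matrix steps of the urea cycle, glucose production and fatty acid oxidation to their cytosolic steps. In white fat, exported citrate provides acetyl units for fatty acid synthesis. Uncoupling proteins are relatives of these carriers, and Ucp1 lets protons flow back to produce heat in brown fat.

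Values were FPKM, mapped fragments divided by transcript length and by library size, so levels of different genes are comparable per length. Within tissues, 9644 to 9738 genes were at 1 FPKM or more in LA livers, 9522 to 9689 in PF livers, 11276 to 11439 in LA fat and 11320 to 11480 in PF fat. The adipocyte markers Adipoq, Lep, Plin and Retn were at 0 in all livers and ranged upward from 479 FPKM in fat, the lowest being Plin. The other adipocyte markers, Cidec, Cfd, Lipe and Pparg, were above 0 in every liver. Cidec was the highest of them there, at 53.3 to 60.7 FPKM in LA livers and 48.5 to 54.8 in PF livers. All 8 adipocyte markers summed to 62.0 to 71.6 FPKM in LA livers and 59.1 to 70.9 in PF livers. In LA and PF fat they summed to 11347 to 12257 and 11163 to 12817 FPKM. Summed hepatocyte markers were 28202 to 36904 FPKM in LA livers and 37256 to 45730.4 in PF livers, against 84.4 to 814 and 394 to 934 in LA and PF fat. Alb, the hepatocyte marker that encodes albumin, was listed at 0 in every liver library, so a 0 in these files can be a failed estimate. The tissues are mixtures of cells, so fewer cells of a type and less RNA per cell cannot be told apart in any result given here.

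The summed level of the 43 genes was 1501, 1485, 1453 and 1556 FPKM in LA livers and 1477, 1503, 1413 and 1486 FPKM in PF livers. In fat the sums were 2008, 1606, 1851 and 1540.0 FPKM in LA libraries and 2015, 2157, 1567 and 2116 FPKM in PF libraries. These FPKM sums overlapped between feeds in both tissues, and the fat libraries spread more widely than the liver libraries. As a share of all FPKM in a library, the 43 genes made up 0.269 to 0.296% in LA livers and 0.236 to 0.266% in PF livers, without overlap, against 0.292 to 0.333% in LA fat and 0.311 to 0.378% in PF fat, with overlap, and these shares were not tested. LA fat replicates 2 and 4 and PF fat replicate 3 had the lowest fat sums, and the summed porins Vdac1, Vdac2 and Vdac3, the outer membrane channels, also had their 3 lowest fat values there, at 325, 333 and 332 FPKM. The phosphate and ADP/ATP carriers Slc25a3, Slc25a4 and Slc25a5 together made up 34.1 to 39.1% of the sum in LA livers, 34.7 to 36.9% in PF livers, 52.5 to 57.1% in LA fat and 53.2 to 54.7% in PF fat. Amino acid carriers made up 18.0 to 19.8% and 20.3 to 20.9% of the sum in LA and PF livers, against 2.09 to 2.66% and 2.08 to 2.57% in LA and PF fat.

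**Figure D1:**
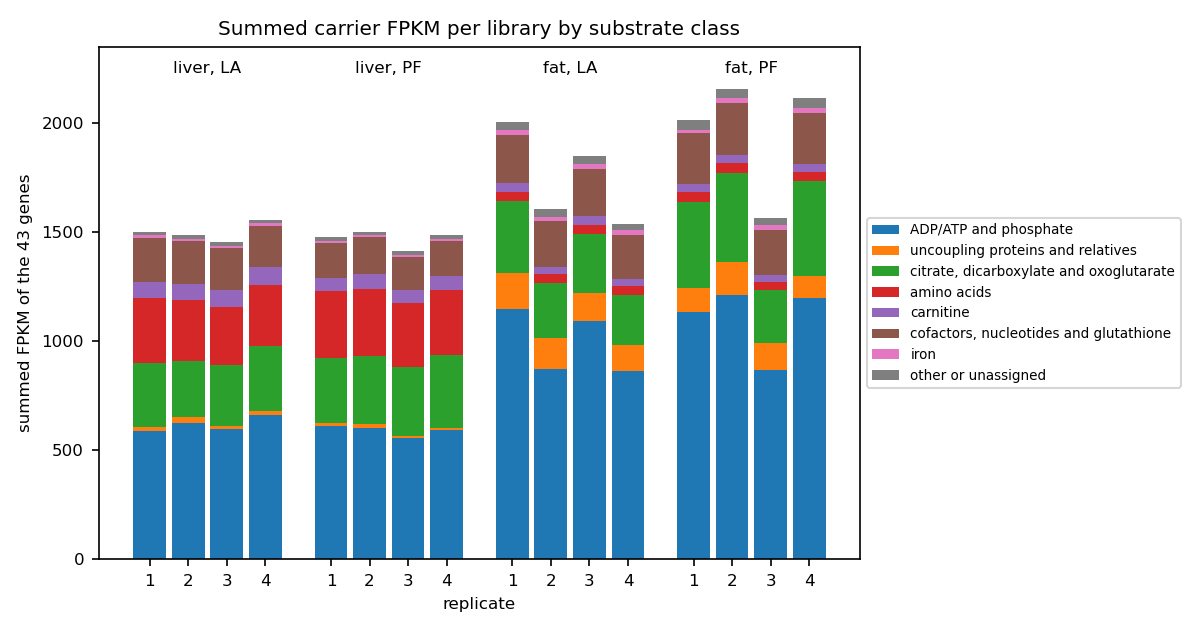
Summed FPKM of the 43 carrier genes in each library, stacked by substrate class, with liver left of fat and LA left of PF. The 8 liver bars lie between 1413 and 1556 FPKM, amino acid carriers take a visibly larger part of the liver bars, and the fat bars vary more in height.

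In liver the order of levels over 8 libraries began with Slc25a5 and Slc25a3, whose ranges overlapped neither each other nor the next gene. The genes that followed, Slc25a10, Slc25a15, Slc25a39, Slc25a1, Slc25a13, Slc25a20, Slc25a11 and Slc25a25, each overlapped the next in the order. In fat Slc25a3 and Slc25a5 overlapped at the top, Slc25a4 came next without overlap on either side, and Slc25a10, Slc25a1, Ucp2 and Slc25a39 followed with overlap between neighbours. Slc25a23, Slc25a31 and Slc25a41 were listed at 0 in all 16 libraries, and with Slc25a2, Slc25a18, Slc25a27, Slc25a34 and Ucp1 they make 8 members that stayed under 1 FPKM in all 16. At 1 FPKM or more in all 8 libraries of a tissue were 26 members in liver and 33 in fat.

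**Figure D2:**
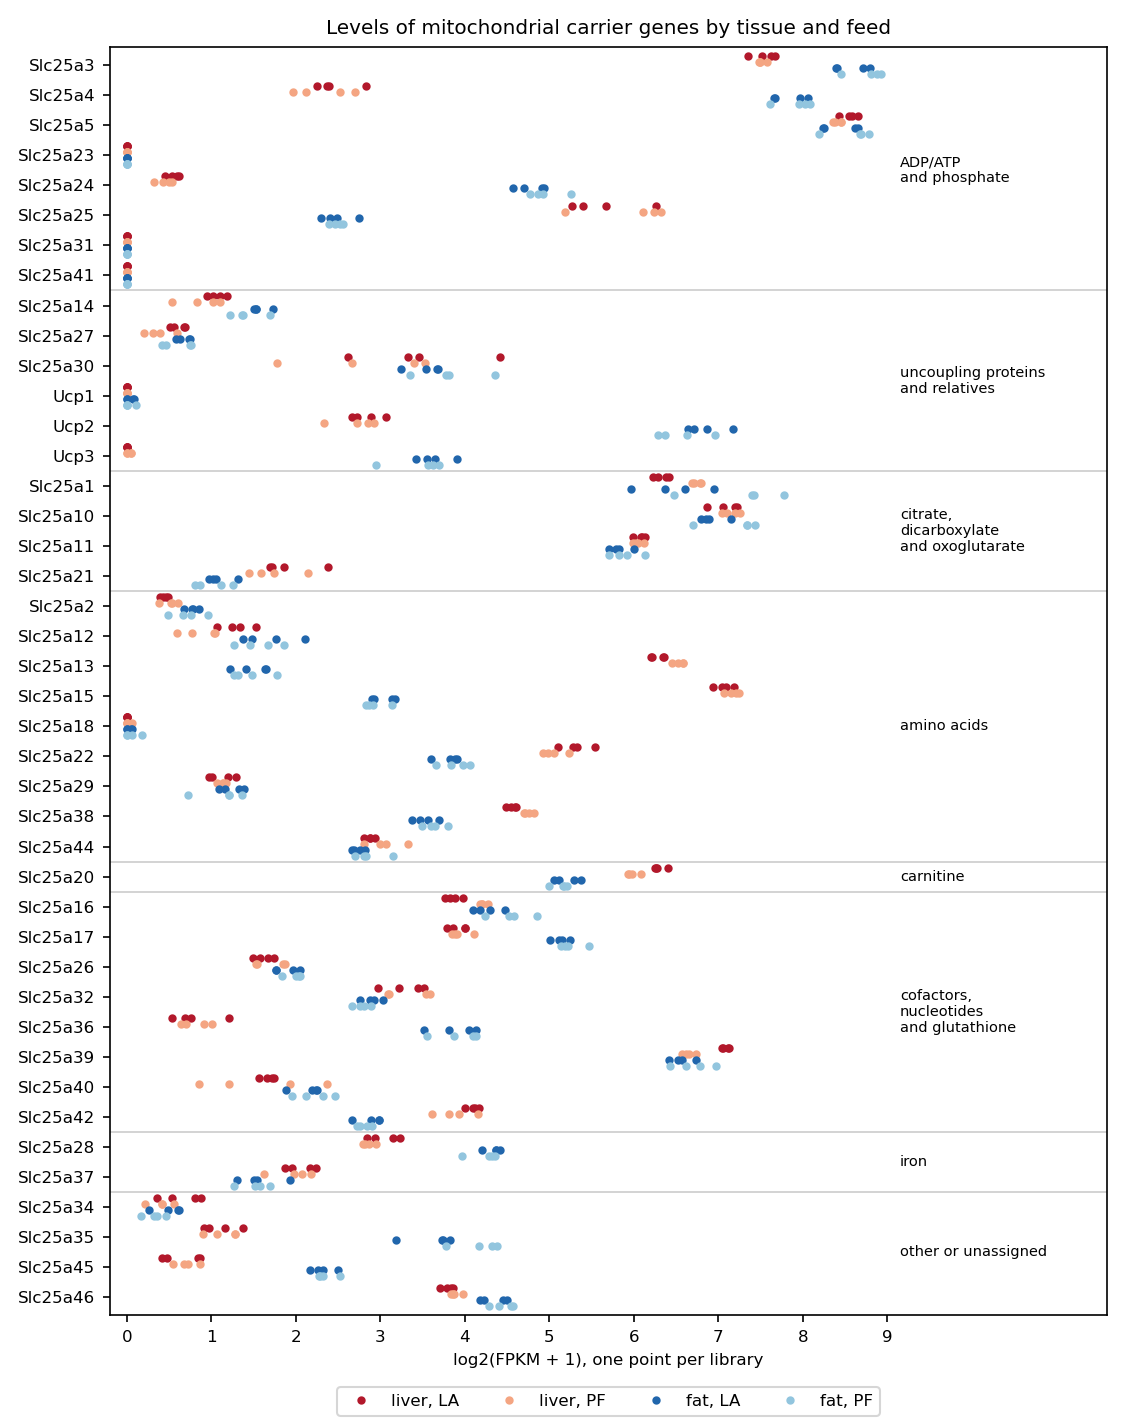
Levels of carrier genes in each library as log2(FPKM + 1), grouped by substrate class, with 1 point per library and liver above fat within a gene. The widest gaps between tissues are those of Slc25a4, Slc25a13, Slc25a24, Slc25a15 and Ucp2, and the LA and PF points of a tissue lie close together for most genes.

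The comparison of liver with fat asked how the set of carriers differs between the tissues under each feed. Of 7 amino acid carriers tested, 4 were called higher in liver (Slc25a13, Slc25a15, Slc25a22 and Slc25a38) and 0 lower, and the ADP/ATP carrier Slc25a4 and the uncoupling protein Ucp2 were lower in liver than in fat. Genes were tested as log2(FPKM + 1) with limma and called between tissues at an adjusted p under 0.05 and a log2 fold change over 1 in size. Of 35 members tested in PF rats, 6 were called higher and 11 lower in liver, with 47.4% of all tested genes called (11.1% higher and 36.3% lower). Under LA, 7 of 35 were called higher and 11 lower, with 46.4% of all genes called (10.5% higher and 36% lower). The same 17 members were called under both feeds, and Slc25a20 was called under LA as well. The members' share called was close to that of all genes, and 5 of those called (Slc25a24, Slc25a35, Slc25a36, Slc25a45 and Ucp3) passed the filter on low values through their fat level. Their difference was needed for them to be tested at all, so they are given as values only. The median log2 fold change over all tested genes was -0.66 in PF rats and -0.65 in LA rats, against -0.33 and -0.15 over the tested members. With libraries centred on their medians, which shifted all folds by 0.67, the split became 10 higher and 7 lower in PF rats and 11 higher and 7 lower in LA rats. Slc25a3, Slc25a17, Slc25a28 and Slc25a45 were then no longer called, while Slc25a21, Slc25a32 and Slc25a37 were called higher in liver under both feeds, Slc25a20 also in PF rats and Slc25a39 also in LA rats.

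Among the energy carriers, Slc25a4 and Slc25a5 exchange ADP for ATP, the first mainly in heart and muscle and the second in most tissues. Slc25a4 had 3.76, 4.14, 4.24 and 6.12 FPKM in LA livers and 3.34, 5.48, 2.90 and 4.74 FPKM in PF livers, against 267, 203, 249 and 201 FPKM in LA fat and 247, 271, 195 and 259 FPKM in PF fat. Every fat library was far above every liver library (log2 fold change -5.60, SE 0.17, limma adjusted p = 8.3e-11 in PF rats, and -5.38 in LA rats). Slc25a5 had 344, 381, 372 and 401 FPKM in LA livers and 349, 348, 328 and 332 FPKM in PF livers, against 402, 303, 391 and 301 FPKM in LA fat and 409, 441, 291 and 412 FPKM in PF fat. The tissues overlapped for Slc25a5, which was not called (log2 fold change -0.18, adjusted p = 0.238 in PF rats), and the fold is within the 0.67 by which centring shifts it, so it has no stable sign. Of the summed FPKM of these ADP/ATP carriers, Slc25a4 gave 1.08 to 1.5% in LA livers, 0.875 to 1.55% in PF livers, 38.9 to 40.1% in LA fat and 37.6 to 40.2% in PF fat. Skeletal muscle markers were 7.01 to 9.26 FPKM in sum in LA fat and 5.37 to 8.78 in PF fat over 8 genes, nearly all of it Tnnt3, while the muscle creatine kinase gene Ckm and the actin gene Acta1 were at most 0.457 FPKM. The RefSeq table lists 9 pseudogenes of Slc25a5, 1 of Slc25a4 and 2 of Slc25a3, so reads shared with these copies leave their levels uncertain.

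The promoters of this pair are shown because its members do the same exchange and Slc25a4 alone was called between tissues. Each sequence is the 250 bases before the annotated start in RefSeq's rat assembly GRCr8, 5′ to 3′ in the direction of the gene, with capitals for GC boxes (GGGCGG) and CCAAT boxes (CCAAT) on either strand. Slc25a4 lies at chr16:52805271-52805520, plus strand, and Slc25a5 at chrX:120897366-120897615, plus strand.
Slc25a4 promoter: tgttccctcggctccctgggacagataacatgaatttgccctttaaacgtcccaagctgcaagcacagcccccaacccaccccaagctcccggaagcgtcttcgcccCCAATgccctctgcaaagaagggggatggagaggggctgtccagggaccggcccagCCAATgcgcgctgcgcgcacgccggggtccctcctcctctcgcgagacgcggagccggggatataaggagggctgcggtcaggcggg
Slc25a5 promoter: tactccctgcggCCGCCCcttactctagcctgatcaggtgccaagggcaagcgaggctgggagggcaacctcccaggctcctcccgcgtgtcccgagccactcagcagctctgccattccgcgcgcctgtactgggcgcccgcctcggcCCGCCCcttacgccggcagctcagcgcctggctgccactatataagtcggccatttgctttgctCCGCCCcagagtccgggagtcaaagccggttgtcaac
The Slc25a4 window held 2 CCAAT boxes and no GC box, and the Slc25a5 window held 3 GC boxes and no CCAAT box, with no shared bases between matches. Among 33469 promoter windows of this length, 30.5% held a GC box and 34.0% a CCAAT box, and of the 36 family members with a window 20 held a GC box and 18 a CCAAT box.

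Slc25a3 imports phosphate for ATP synthesis. It had 163, 196, 181 and 202 FPKM in LA livers and 177, 179, 190.4 and 179 FPKM in PF livers, against 441, 338, 418 and 334 FPKM in LA fat and 446, 469, 348 and 485 FPKM in PF fat. All fat values exceeded all liver values (log2 fold change -1.25, SE 0.12, limma adjusted p = 1.6e-06 in PF rats, and -1.03 in LA rats), but the call was lost on centring under both feeds and, in LA rats, without LA liver replicate 1, LA fat replicate 1 or LA fat replicate 3. Slc25a24 and Slc25a25 are calcium-regulated carriers that exchange ATP-Mg for phosphate. Slc25a24 had 0.451, 0.532, 0.364 and 0.512 FPKM in LA livers and 0.345, 0.451, 0.253 and 0.408 FPKM in PF livers, against 29.6, 25.0, 29.2 and 22.8 FPKM in LA fat and 29.3, 26.3, 28.2 and 37.3 FPKM in PF fat. Slc25a25 had 75.5, 41.2, 37.5 and 50.1 FPKM in LA livers and 78.8, 68.1, 35.3 and 74.3 FPKM in PF livers, against 5.70, 4.28, 4.62 and 3.91 FPKM in LA fat and 4.52, 4.87, 4.73 and 4.26 FPKM in PF fat. Slc25a25 was called higher in liver (log2 fold change 3.48, SE 0.21, limma adjusted p = 3.5e-08 in PF rats), and its liver libraries spread widely, from 37.5 to 75.5 FPKM in LA livers and from 35.3 to 78.8 FPKM in PF livers. Slc25a24 was under 1 FPKM in every liver library, and its lowest fat value was above its highest liver value.

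Among amino acid carriers, Slc25a12 and Slc25a13 exchange aspartate for glutamate in the malate-aspartate shuttle, and Slc25a13, also called citrin, is the liver form. Slc25a13 had 81.1, 72.7, 73.5 and 80.6 FPKM in LA livers and 91.0, 94.8, 94.9 and 86.8 FPKM in PF livers, against 2.12, 1.32, 2.11 and 1.67 FPKM in LA fat and 1.48, 1.79, 1.41 and 2.43 FPKM in PF fat. Among the 43 symbols it had the highest liver-over-fat fold (log2 fold change 5.08, SE 0.11, limma adjusted p = 1.2e-11 in PF rats, and 4.81 in LA rats). Slc25a12 had 1.36, 1.87, 1.54 and 1.10 FPKM in LA livers and 0.711, 0.507, 1.06 and 1.04 FPKM in PF livers, against 1.58, 2.40, 1.79 and 3.30 FPKM in LA fat and 1.76, 1.42, 2.64 and 2.19 FPKM in PF fat. Its mean was lower in liver and it was not called (log2 fold change -0.71 in PF rats). Slc25a13 gave 97.5 to 98.7% of their sum in LA livers and 98.8 to 99.5% in PF livers, against 33.6 to 57.3% in LA fat and 34.8 to 55.9% in PF fat. Slc25a15 carries ornithine into the matrix for the urea cycle. It had 145, 135, 131 and 121 FPKM in LA livers and 146, 141, 133 and 151 FPKM in PF livers, against 6.49, 7.78, 8.0 and 6.58 FPKM in LA fat and 7.78, 6.51, 6.31 and 6.10 FPKM in PF fat. Its liver values were all far above its fat values (log2 fold change 4.23, SE 0.09, limma adjusted p = 9.3e-12 in PF rats).

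Fat libraries held a trace of liver genes, which stands beside these low fat values. Over 8 hepatocyte markers other than Alb, the fat level was a median of 0.458% of the liver level in LA rats and 0.580% in PF rats. The fat level of Slc25a13 was 2.34% of its liver level in LA rats and 1.94% in PF rats, that of Slc25a15 was 5.42% and 4.67%, and that of Slc25a25 was 9.06% and 7.16%, all above the marker values. Slc25a47, a liver carrier listed under its older symbol Hdmcp and therefore outside the 43, averaged 239 ± 46.4 FPKM in LA livers and 274 ± 88.8 FPKM in PF livers, against 1.25 ± 0.967 FPKM in LA fat and 1.8 ± 0.515 FPKM in PF fat (SD, n = 4 each). Its fat level was 0.523% and 0.657% of its liver level in LA and PF rats, near the marker values.

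Slc25a22 carries glutamate, and Slc25a38 brings glycine to heme synthesis. Slc25a22 had 37.7, 39.2, 33.3 and 45.7 FPKM in LA livers and 32.3, 36.6, 30.7 and 29.3 FPKM in PF livers, against 13.8, 14, 13.1 and 11.1 FPKM in LA fat and 15.6, 14.8, 11.7 and 13.3 FPKM in PF fat. Slc25a38 had 23.3, 21.3, 22.4 and 23.2 FPKM in LA livers and 26.1, 27.2, 25.3 and 25.0 FPKM in PF livers, against 10.8, 9.35, 12.0 and 10.1 FPKM in LA fat and 11.1, 12.9, 10.3 and 11.5 FPKM in PF fat. Liver was above fat for both genes without overlap (log2 fold change 1.17, SE 0.11, limma adjusted p = 1.4e-06 for Slc25a22 and log2 fold change 1.11, SE 0.09, limma adjusted p = 3.3e-07 for Slc25a38, in PF rats). In LA rats the log2 fold changes were 1.51 and 1.03, and Slc25a38 missed the fold threshold without LA fat replicate 2 (0.98). Of the remaining amino acid carriers, Slc25a44, a carrier of branched-chain amino acids, ranged from 5.36 to 9.01 FPKM over all libraries, and Slc25a29, a carrier of basic amino acids, from 0.653 to 1.62 FPKM. The ornithine carrier Slc25a2 and the glutamate carrier Slc25a18 stayed below 1 FPKM.

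Of the uncoupling proteins, Ucp2 and Ucp3 had higher values in fat than in liver, and Ucp1 stayed below 1 FPKM in every library. Ucp2, which is found in many tissues and in immune cells, had 5.34, 6.42, 5.60 and 7.36 FPKM in LA livers and 5.61, 6.56, 4.04 and 6.21 FPKM in PF livers, against 143, 116, 104 and 98.5 FPKM in LA fat and 77.2, 124, 97.6 and 81.7 FPKM in PF fat. The tissues did not overlap (log2 fold change -3.85, SE 0.17, limma adjusted p = 1.8e-09 in PF rats, and -4.01 in LA rats). Of 7 macrophage markers tested between tissues, 6 were called lower and 1, Clec4f, higher in liver under both feeds. Of all tested genes, 36.3% were called lower and 11.1% higher in PF rats, and 36% and 10.5% in LA rats. Itgam and Itgax were under 1 FPKM in every liver, and Clec4f was under 1 FPKM in all fat. They passed the filter through the tissue where they are high, so their difference was needed for them to be tested. The sum over 9 macrophage markers was 101 to 153 FPKM in LA livers, 71.0 to 84.6 in PF livers, 334 to 589 in LA fat and 252 to 309.9 in PF fat, with Emr1 and Marco at 0 throughout. Clec4f, a marker of liver macrophages, made up most of the liver sums, at 64.8 to 93.4 FPKM in LA livers and 43.6 to 54.7 in PF livers, against at most 0.459 FPKM in fat. The part of these markers in the level of Ucp2 was not tested. Ucp3, known from skeletal muscle, was listed at 0 in the 4 LA livers and had 0.0360, 0, 0.0312 and 0 FPKM in PF livers. In fat it had 9.73, 11.5, 14 and 10.7 FPKM in LA libraries and 11.3, 11.9, 10.9 and 6.72 FPKM in PF libraries, so every fat library held it and no fold is given against livers at or near 0. Ucp1, the heat producer of brown fat, was at 0 in all livers, with 0.0618, 0.0528, 0 and 0 FPKM in LA fat and 0, 0, 0 and 0.0782 FPKM in PF fat. The brown fat markers Dio2, Cox8b and Elovl3 were also at most 0.229 FPKM in fat, while Cidea, which white fat of rodents can express, was 200.3 to 221 FPKM in LA fat and 179.8 to 287 FPKM in PF fat. The relatives Slc25a14 and Slc25a30 ranged from 0.447 to 2.32 FPKM and from 2.43 to 20.3 FPKM over all libraries, and Slc25a27 stayed below 1 FPKM.

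Carriers of cofactors and nucleotides went in both directions. Slc25a42, a carrier of coenzyme A, had 16.9, 15.1, 16.1 and 16.4 FPKM in LA livers and 14.2, 16.8, 13.0 and 11.3 FPKM in PF livers, against 6.88, 6.90, 5.35 and 6.43 FPKM in LA fat and 5.61, 6.46, 6.19 and 5.78 FPKM in PF fat. It was higher in liver (log2 fold change 1.07, SE 0.12, limma adjusted p = 5.7e-06 in PF rats), and without PF liver replicate 2 the fold was 0.98 and missed the threshold. Slc25a36, a pyrimidine nucleotide carrier, had 0.606, 0.453, 1.30 and 0.696 FPKM in LA livers and 0.621, 0.564, 0.882 and 1.01 FPKM in PF livers, against 10.4, 15.5, 13.0 and 16.5 FPKM in LA fat and 16.6, 10.7, 16.1 and 13.7 FPKM in PF fat. Slc25a35 and Slc25a45 are carriers with no substrate assigned here. Slc25a35 had 1.59, 0.966, 1.24 and 0.884 FPKM in LA livers and 1.43, 0.859, 1.09 and 1.42 FPKM in PF livers, against 12.4, 12.2, 13.2 and 8.10 FPKM in LA fat and 18.9, 16.9, 12.7 and 19.9 FPKM in PF fat. Slc25a45 had 0.798, 0.334, 0.387 and 0.826 FPKM in LA livers and 0.655, 0.595, 0.826 and 0.457 FPKM in PF livers, against 4.64, 3.78, 4.00 and 3.51 FPKM in LA fat and 3.83, 3.87, 3.99 and 4.76 FPKM in PF fat. In none of these genes did the tissues overlap. Slc25a35, Slc25a36 and Slc25a45 passed the filter on low values through their fat level, so for them this describes the values only.

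Slc25a10 exchanges dicarboxylates such as malate and succinate for phosphate, and Slc25a11 exchanges oxoglutarate for malate. Slc25a10 had 148, 115, 132 and 145 FPKM in LA livers and 131, 137, 145 and 152 FPKM in PF livers, against 141, 118, 115 and 109.6 FPKM in LA fat and 161, 172, 103 and 161 FPKM in PF fat. Slc25a11 had 69.1, 66.9, 62.3 and 67.2 FPKM in LA livers and 62.6, 65.2, 64.1 and 68.3 FPKM in PF livers, against 62.9, 51.2, 55.6 and 54.1 FPKM in LA fat and 59.5, 69.2, 51.3 and 55.7 FPKM in PF fat. Tissues overlapped in both genes under each feed (log2 fold changes in PF rats -0.05 and 0.15, adjusted p = 0.745 and 0.187), and the fold of Slc25a10 is also within the centring shift. Of the iron carriers, Slc25a28 was 5.91 to 8.42 FPKM in livers and 14.6 to 20.4 FPKM in fat, and Slc25a37 was 2.07 to 3.71 FPKM in livers and 1.41 to 2.80 FPKM in fat. Slc25a17, a peroxisomal member of the family, was 12.9 to 16.2 FPKM in livers and 31.1 to 43.3 FPKM in fat. None of the next members was called between tissues under either feed. Slc25a21, which carries oxodicarboxylates such as oxoadipate, had 2.24 to 4.19 FPKM in LA livers and 1.71 to 3.41 FPKM in PF livers, against 0.958 to 1.48 FPKM in LA fat and 0.744 to 1.39 FPKM in PF fat. Slc25a32, a carrier of folate, had 6.82 to 10.5 FPKM in LA livers and 7.5 to 11.1 FPKM in PF livers, against 5.75 to 7.20 FPKM in LA fat and 5.33 to 6.42 FPKM in PF fat. Tissues did not overlap under either feed in Slc25a21, and they did not in Slc25a32 in PF rats. Slc25a26, which brings S-adenosylmethionine to the matrix, ranged from 1.82 to 3.13 FPKM over all libraries. Slc25a46, a member of the outer membrane that acts in mitochondrial fission and fusion, was 12.0 to 14.8 FPKM in livers and 17.1 to 22.7 FPKM in fat.

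The enzymes on either side of the carriers were read from lists of partner genes. All 6 urea cycle genes, which work with Slc25a13 and Slc25a15, were called higher in liver under both feeds, against 11.1% of all tested genes in PF rats and 10.5% in LA rats. Of these, Nags, which makes the activator of the cycle, averaged 36.9 ± 4.25 FPKM in LA livers and 38.7 ± 4.05 in PF livers, against 0.641 ± 0.119 in LA fat and 0.947 ± 0.183 in PF fat (SD, n = 4 each). Nags passed the filter on low values through its liver level, so its difference was needed for it to be tested. Its call therefore adds nothing to the count of 6. Of 7 citrate export partners in PF rats, 1 was higher and 4 lower in liver, and in LA rats 0 were higher and 4 lower. Of all tested genes, 36% were called lower in liver in LA rats and 36.3% in PF rats. Citrate synthase Cs averaged 37.5 ± 1.81 FPKM in LA livers and 32.1 ± 1.73 in PF livers, against 170.4 ± 6.93 in LA fat and 195 ± 30.3 in PF fat, the opposite order to the urea cycle genes. Of 5 carnitine partners, 2 were higher and 2 lower in liver under both feeds. Cpt1a and Cpt2 were higher (log2 fold changes 2.45 and 1.04 in PF rats), and Cpt1b, the muscle form, and Crat were lower. In livers alone only 4 of the 5 passed the filter on low values, so 1 entered the tissue comparison through its fat level. Its difference was needed for it to be tested, so its call adds nothing to these counts, and no folds are given for the lower genes.

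The feed comparison in liver asked which carriers differed between LA and PF rats. The glutathione carrier Slc25a39 and the carnitine carrier Slc25a20 were higher in LA livers. The citrate carrier Slc25a1 and Slc25a16, thought to carry coenzyme A, were lower. Genes were called at an adjusted p under 0.05 over all 9710 genes tested. Of 31 members tested, 2 were called higher and 2 lower, with 4.48% of all tested genes called (2.27% higher and 2.21% lower). The median log2 fold change was 0.03 over the tested members and -0.0020 over all genes, and the median size of the change was 0.17 and 0.11. The feeds did not overlap in 8 members, 4 higher and 4 lower, and in 12.3% of all tested genes (5.89% higher and 6.39% lower). Summed hepatocyte markers were 28202 to 36904 FPKM in LA livers and 37256 to 45730.4 FPKM in PF livers, and summed macrophage markers were 101 to 153 FPKM in LA livers and 71.0 to 84.6 FPKM in PF livers. The feeds did not overlap in either sum. Of 8 hepatocyte markers tested, 6 had log2 fold changes below 0 and 2 above, and 0 were called. Ttr was the highest of them, at 14035 to 18498 FPKM in LA livers and 19070 to 25679 FPKM in PF livers. Of 5 macrophage markers tested, 5 had log2 fold changes above 0 and 2 were called higher, against 2.27% of all tested genes. The part of either set of markers in these results was not tested.

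Slc25a39 imports glutathione, the main thiol antioxidant of the matrix. It had 139, 137, 131 and 132 FPKM in LA livers, against 99.9, 105, 94.2 and 96.8 FPKM in PF livers. All LA livers were above all PF livers (log2 fold change 0.44, SE 0.07, limma adjusted p = 0.00500), and this was the one carrier change that kept its call with each single library left out, with a replicate block and with all 16 libraries in the fit (adjusted p up to 0.0223). In fat it had 106, 90.8, 94.1 and 84.6 FPKM in LA libraries, against 109, 125, 84.9 and 96.8 FPKM in PF libraries, with overlap. The RefSeq table lists 8 pseudogenes of Slc25a39, so its level is uncertain where reads are shared. Slc25a40, its close relative, was 1.95 to 2.34 FPKM in LA livers and 0.812 to 4.15 FPKM in PF livers, was 2.68 to 3.78 FPKM in LA fat and 2.86 to 4.49 FPKM in PF fat, and was not called in any comparison.

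Slc25a20 exchanges acylcarnitines for carnitine, which brings long-chain fatty acids to oxidation. It had 75.0, 75.6, 76.3 and 83.9 FPKM in LA livers, against 60.6, 66.7, 60.2 and 61.8 FPKM in PF livers. The feeds did not overlap (log2 fold change 0.31, SE 0.07, limma adjusted p = 0.0293), but leaving out LA replicate 2, 3 or 4 or PF replicate 1, 3 or 4 raised the adjusted p above the threshold, up to 0.0911. In fat it had 40.6, 33.8, 38.1 and 32.4 FPKM in LA libraries, against 35.1, 35.8, 30.8 and 34.8 FPKM in PF libraries, and the feeds overlapped. Its partners in the carnitine shuttle had higher means in LA livers in 4 of 4 tested genes, with a median log2 fold change of 0.44. With limma 0 were called, and 3 were at an unadjusted p under 0.05, as were 1955 of all 9710 genes. Cpt2, the inner membrane enzyme that works with this carrier, averaged 66.7 ± 6.18 FPKM in LA livers and 52.0 ± 5.13 FPKM in PF livers (adjusted p = 0.0538).

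Slc25a1 exports citrate, the source of cytosolic acetyl units. It had 77.0, 73.7, 84.7 and 82.0 FPKM in LA livers, against 104, 110.0, 102 and 109 FPKM in PF livers. LA livers were below PF livers without overlap (log2 fold change -0.42, SE 0.07, limma adjusted p = 0.00837), and the call was lost with all 16 libraries in the fit (adjusted p = 0.366). In fat it had 122, 81.7, 96.0 and 61.7 FPKM in LA libraries, against 171, 167, 88.2 and 218 FPKM in PF libraries. The mean in LA fat was lower by a larger amount, but PF fat replicate 3 lay within the LA range and the gene was not called (log2 fold change -0.80, SE 0.28, adjusted p = 1.00). Acly, which splits the exported citrate, was called lower in LA livers, at 96.9 ± 34.2 FPKM against 294 ± 125 FPKM in PF livers (log2 fold change -1.57, adjusted p = 0.0283), a call lost with no filter on low values and without LA replicate 2, PF replicate 3 or PF replicate 4 (adjusted p up to 0.0772).

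Slc25a16 is thought to carry coenzyme A, from work on a yeast relative. It had 13.7, 13.2, 14.7 and 12.6 FPKM in LA livers, against 17.5, 17.4, 17.2 and 18.4 FPKM in PF livers. The feeds were apart without overlap (log2 fold change -0.35, SE 0.07, limma adjusted p = 0.0181), and the call was lost without LA replicate 2 (adjusted p = 0.0614), without PF replicate 1 (0.0511) and with all 16 libraries (0.0933). In fat it had 18.7, 16.2, 21.3 and 17.1 FPKM in LA libraries, against 22.9, 22.0, 17.8 and 27.8 FPKM in PF libraries. Those groups overlapped. Slc25a42, the coenzyme A carrier described above, had a higher mean in LA livers and was not called (log2 fold change 0.22, adjusted p = 0.286).

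**Figure D3:**
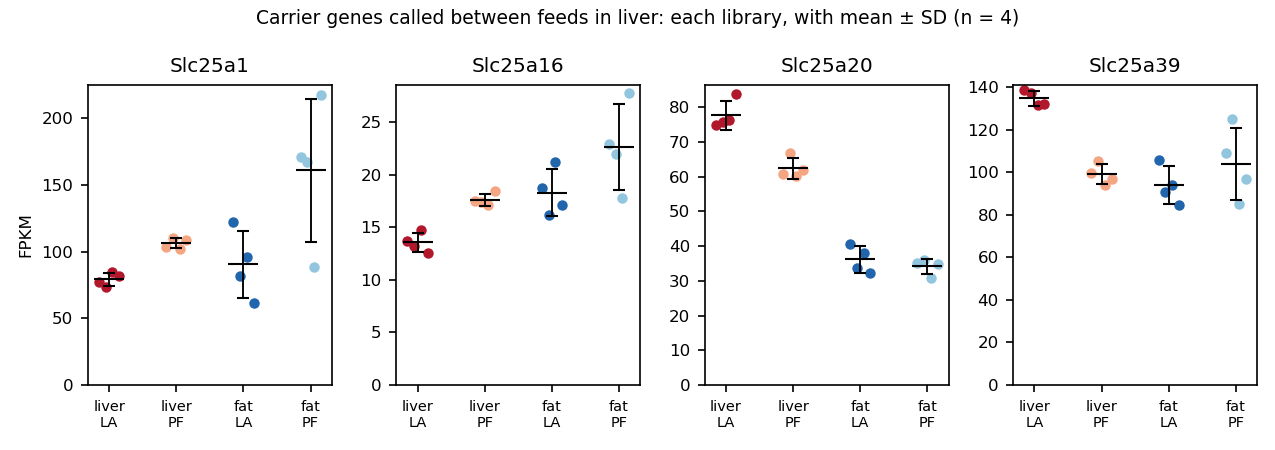
FPKM of the 4 carrier genes called between feeds in liver, with 1 point per library and bars for the mean and SD (n = 4), LA left of PF and liver left of fat. The LA and PF livers do not overlap in any of the 4 genes, and LA and PF fat overlap in all 4.

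The promoters of these 4 genes are shown because they are the family members that differed between feeds. The windows and capitals are as for the ADP/ATP carriers. Slc25a39 lies at chr10:87866974-87867223, minus strand. Slc25a20 lies at chr8:118243323-118243572, plus strand. Slc25a1 lies at chr11:96559804-96560053, plus strand. Slc25a16 lies at chr20:25715008-25715257, minus strand.
Slc25a39 promoter: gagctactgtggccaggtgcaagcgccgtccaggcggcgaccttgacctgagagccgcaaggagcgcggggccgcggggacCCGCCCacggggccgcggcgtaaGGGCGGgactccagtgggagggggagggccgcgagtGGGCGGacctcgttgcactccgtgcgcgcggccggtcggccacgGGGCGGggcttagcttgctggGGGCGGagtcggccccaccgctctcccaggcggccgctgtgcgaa
Slc25a20 promoter: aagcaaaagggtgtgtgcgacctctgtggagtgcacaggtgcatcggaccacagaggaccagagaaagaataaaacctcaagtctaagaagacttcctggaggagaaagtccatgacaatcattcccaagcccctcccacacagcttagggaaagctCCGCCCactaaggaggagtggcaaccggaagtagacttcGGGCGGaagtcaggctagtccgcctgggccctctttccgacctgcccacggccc
Slc25a1 promoter: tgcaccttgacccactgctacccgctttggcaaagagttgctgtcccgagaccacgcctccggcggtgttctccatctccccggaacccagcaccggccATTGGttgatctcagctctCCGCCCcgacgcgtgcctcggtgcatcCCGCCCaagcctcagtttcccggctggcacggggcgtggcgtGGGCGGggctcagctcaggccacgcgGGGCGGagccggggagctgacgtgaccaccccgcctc
Slc25a16 promoter: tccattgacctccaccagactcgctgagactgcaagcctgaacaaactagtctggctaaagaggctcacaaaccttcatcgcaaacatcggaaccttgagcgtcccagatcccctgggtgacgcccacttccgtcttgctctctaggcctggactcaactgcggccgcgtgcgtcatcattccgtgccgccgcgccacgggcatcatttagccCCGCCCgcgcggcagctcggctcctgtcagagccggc
GC boxes numbered 5 for Slc25a39, 2 for Slc25a20, 4 for Slc25a1 and 1 for Slc25a16, and Slc25a1 also held 1 CCAAT box. The 4 windows held no E-box (CACGTG), sterol response element (TCACNCCAC), NRF1 site (GCGC and TGCGC with 1 base between), PPAR response element (AGGTCA and AGGTCA with 1 base between) or TATA box (TATAAA) in these letters on either strand. Those motifs occurred in 5.59%, 0.974%, 3.75%, 0.0508% and 12.9% of all 33469 windows, in that order, and a missing match says only that these letters are not in the window.

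Further members did not overlap between feeds in liver but missed the threshold. Slc25a13 was below the PF range in all 4 LA livers (log2 fold change -0.25, SE 0.07, adjusted p = 0.0674), and so was Slc25a38 (-0.19, adjusted p = 0.126). Slc25a12 was above the PF range in all 4 (0.43, SE 0.13, adjusted p = 0.0963). The aspartate/glutamate carriers thus had opposite signs, with Slc25a13 far the more abundant, but neither was called. Slc25a12 lay near the filter value, at 1.10 to 1.87 FPKM in LA livers and 0.507 to 1.06 FPKM in PF livers. Slc25a30 had the largest fold of the tested members in liver but a wide spread, 5.14 to 20.3 FPKM in LA livers against 2.43 to 10.6 FPKM in PF livers (log2 fold change 0.61, SE 0.42, adjusted p = 0.465). Slc25a4, Slc25a5, Slc25a10, Slc25a11, Slc25a15 and Ucp2 had log2 fold changes between -0.10 and 0.14 and were not called.

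The substrate classes can also be read as parts of the family sum. Carnitine transport by Slc25a20 was 5.0 to 5.39% of the sum in LA livers, against 4.10 to 4.44% in PF livers, and in fat it was 2.02 to 2.1% in LA libraries, against 1.64 to 1.97% in PF libraries, also without overlap. Cofactor, nucleotide and glutathione carriers were 12.2 to 13.4% in LA livers, against 10.7 to 11.4% in PF livers. Amino acid carriers had the shares given above, lower in LA livers, and citrate, dicarboxylate and oxoglutarate carriers were 17.4 to 19.8% in LA livers, against 20.2 to 22.3% in PF livers. In liver the feeds did not overlap in these 4 shares, which are parts of 1 sum, were not tested and follow from the member values above. ADP/ATP and phosphate carriers overlapped, at 39.1 to 42.4% in LA livers and 39.4 to 41.2% in PF livers.

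In the other partner lists, 0 of 4 pyruvate carrier and porin genes, 0 of 5 shuttle enzymes, 0 of 6 urea cycle genes, 0 of 9 genes of protein import into mitochondria, 0 of 5 iron and heme genes and 0 of 3 calcium uniporter genes were called between feeds in liver. At an unadjusted p under 0.05 these lists held 1, 1, 1, 3, 0 and 0 genes, in the same order, against 1955 of all 9710 genes.

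In fat no carrier was called between LA and PF. With limma, 0 of 35 tested members passed, with 0.0174% of all 11501 tested genes called, and 2 members were at an unadjusted p under 0.05, against 451 of all genes. These were Slc25a1, given above, and Slc25a35, whose values overlapped between feeds through LA replicate 3 and PF replicate 3 (log2 fold change -0.54, SE 0.17, adjusted p = 1.00). The feeds overlapped in every tested member, and in all but 2.08% of all genes. The median log2 fold change was -0.07 over the members and 0.015 over all genes. It was below 0 in 5 of 5 tested ADP/ATP and phosphate carriers and in 21 of 35 tested members. Among those 5, Slc25a25 averaged 4.63 FPKM in LA fat against 4.59 FPKM in PF fat, so its sign depends on the scale. Ucp2 had a higher mean in LA fat with overlap (log2 fold change 0.28, SE 0.17), and macrophage markers had higher means in 6 of 6 tested genes, with 0 called by limma and 3 at an unadjusted p under 0.05. Over the 8 partner lists, limma called 0 genes in fat. At an unadjusted p under 0.05 were 2 citrate export partners and 1 shuttle enzyme, and none in the other lists.

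**Figure D4:**
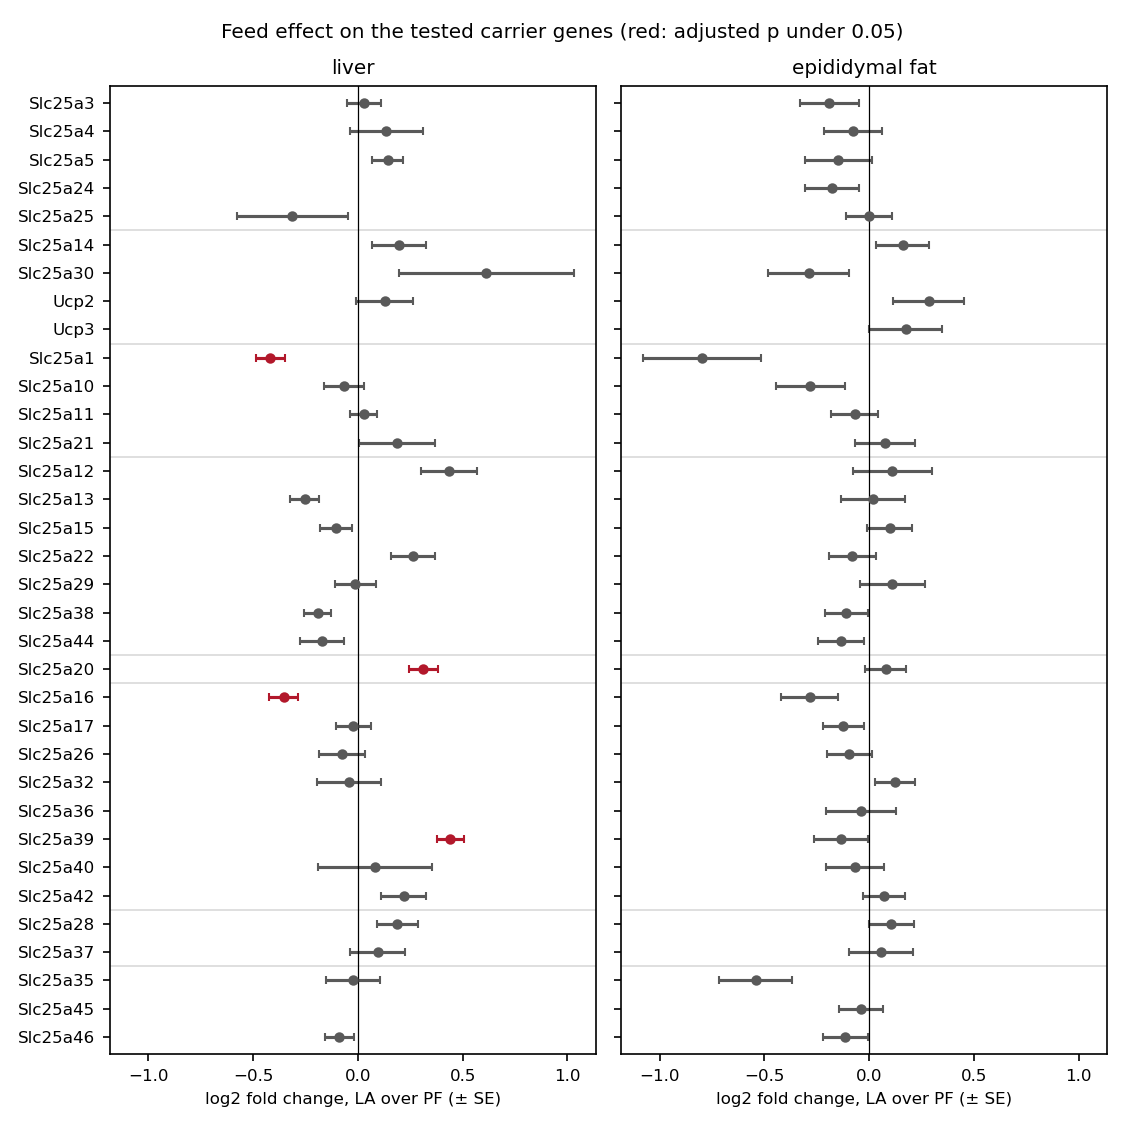
Log2 fold change of LA over PF for the tested carrier genes in liver (left) and epididymal fat (right), with bars of 1 SE on either side, genes grouped by substrate class and called genes in red. In liver Slc25a39 and Slc25a20 lie to the right of 0 and Slc25a1 and Slc25a16 to the left, and in fat no gene is called.

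Whether the feed effect itself differed between liver and fat was tested with all 16 libraries. Of 35 members tested, 0 passed, with 0.381% of all 12079 genes called, and 3 members were at an unadjusted p under 0.05, against 991 of all genes. Slc25a39 had the smallest p (difference of the log2 fold changes 0.58, SE 0.15, limma adjusted p = 0.122), and it passed without PF fat replicate 3 (0.67, adjusted p = 0.0365). Slc25a35 and Slc25a22 were the others (0.52 and 0.34, adjusted p = 0.546 and 0.585). For Slc25a1, Slc25a16 and Slc25a20 the differences were 0.38, -0.07 and 0.23, with SE of 0.31, 0.16 and 0.11 and adjusted p of 0.875, 0.987 and 0.631, so a difference between the tissues in their response was not detected.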

How the data were processed

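RNA was sequenced from liver and epididymal fat of 8 rats, 16 libraries in 4 groups of 4 biological replicates per the labels. The authors deposited FPKM, with 1 value for a gene symbol in a library, per the file headers. The tools were CASAVA 1.8.2, TopHat and Cuffdiff, per the submitters' processing notes. For build, annotation and settings, nothing is given in the sources used here. The TruSeq V2 kit used, per the labels' protocols, keeps no strand, so a gene and its antisense neighbour cannot be told apart. Read totals are unknown. From the steps between low values, the worth of a single fragment relative to PF liver replicate 1 was 0.723 to 0.895 in LA livers, 0.854 to 1 in PF livers, 0.739 to 0.866 in LA fat and 0.775 to 0.962 in PF fat, where a lower value means more depth.

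The test was limma (version 3.58.1, R version 4.3.3) on log2(FPKM + 1), with the variance modelled as a trend in the mean. A gene entered where 4 or more libraries in the fit had at least 1 FPKM, and p-values were adjusted by Benjamini-Hochberg over all genes that entered. The fold changes of low genes are understated by this scale. Livers and fat were fitted apart for the feed comparisons, feed groups apart for the tissue comparisons, and all 16 libraries together for the difference of the feed effects. Libraries were treated as independent, since which of them share a rat is not stated, although both tissues came from the same rats. File headers number replicates from 0 and labels from 1, and the labels' numbers are used here. No pair of libraries held identical values (0 pairs), and across genes the log2 values of libraries in a group had correlations of 0.986 to 0.996.

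The 43 members, the substrate classes and the partner and marker lists were chosen with earlier results of these data known. List genes matched by symbol (41) or older symbol (7), with 4 not matched, and marker genes by symbol (55) or older symbol (2), with 6 not matched. Of the genes preset for the substrate classes, 43 matched by symbol and 9 did not. Older symbols were not used for the classes, so Slc25a47, Slc25a51 and Slc25a6, listed under older symbols, are among the 9. The naming rule took 24 members for values in every library, and some results it covers are not reported here. It took the members called between feeds, the 6 highest in each tissue, the 8 called members with the largest folds between tissues in each direction in PF rats, and a preset of carriers of fuels, nucleotides and amino acids. The other 19 are given by ranges and counts, and of the partner lists up to 3 called genes with the smallest adjusted p, with Cpt2 also named, after its values were seen. The alternatives tried were a smaller pseudocount (0.1), leaving off the filter, centring on medians, the replicate number as a block, an adjusted p under 0.1, a fit of all 16 libraries, another fold threshold and each library left out. Promoter windows are the 250 bases before the RefSeq start in GRCr8, and the chromosome positions belong to that assembly.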

Additional observations from a re-analysis of the deposited data

Results flagged for a closer look

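A single library stood far from the others of its group in 4 of 86 sets of 4 libraries, over the 24 members that the naming rule took and the groups that reached 1 FPKM. Chance flags about 1 in 20 such sets. Slc25a20, the carnitine carrier, had 83.9 FPKM in LA liver replicate 4, above 75.0 to 76.3 FPKM in the other LA livers, and its call between feeds was lost without that library. Slc25a3, the phosphate carrier, had 190.4 FPKM in PF liver replicate 3, above 177 to 179 FPKM in the other PF livers. Slc25a10, the dicarboxylate carrier, had 103 FPKM in PF fat replicate 3, below 161 to 172 FPKM in the other PF fat libraries. Slc25a45 had 4.76 FPKM in PF fat replicate 4, above 3.83 to 3.99 FPKM in the other PF fat libraries, and the same library held a trace of the epididymal gene Lcn5, 9.61 FPKM.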

How the results depend on the processing

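The count of members called between feeds in liver was 4, and 2 with all 16 libraries in the fit (Slc25a20 and Slc25a39), 0 with a log2 fold change over 1 as well, and 2 to 4 with each library left out, the lowest where LA replicate 2 or PF replicate 1 was left out. The counts in fat were 0 under every alternative run, and 0 to 0 with a library left out. For the difference of the feed effects they were 0 to 1, the highest being Slc25a39 without PF fat replicate 3. Between tissues the counts were 17 in PF and 18 in LA rats, and 28 and 29 with no fold threshold. With a library left out they were 14 to 18 in each. Without a fat library Slc25a24, Slc25a45 and Ucp3 fell under the filter, and in LA rats Slc25a3 or Slc25a38 also missed the fold threshold without some libraries. No called member changed sign under an alternative run. Centring raises every fold between tissues by about 0.67, so each fold between -0.67 and 0 turns positive. Slc25a5 and Slc25a10 in PF rats, neither called, are examples, and the median over the tested members in PF rats, -0.33, is also within that shift.

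Replicate numbers are shared between groups. Same-numbered libraries deviated together by correlations of -0.43 to 0.15 between feeds of a tissue and of -0.22 to 0.29 between tissues of a feed. For PF livers 1, 2 and 3 and LA livers 2 and 3, the fat library of that feed with the highest correlation had the same number. Whether the numbers mark a shared rat is not settled by this, and they are not taken as pairs. With a replicate block the liver count was 4, of which 3 were shared with the fit without it: Slc25a20 was not called (adjusted p = 0.0651) and Slc25a30 was (0.0435). The other counts were 0, 0, 17 and 18 with the block. FPKM are shares of a library, so a change in abundant genes moves the others, and with 4 libraries a group small changes can be missed.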
